A study of Drosophila melanogaster with 4 samples.

Results

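CG-numbered genes lowered in Polycomb RNAi wing discs were taken from the deposited expression table as names made of CG and digits only, with at least 2 FPKM (fragments counted relative to transcript length and to all mapped fragments) in wild type and a difference log2((Polycomb RNAi FPKM + 1)/(wild-type FPKM + 1)) of at most -1. CG16884, CG16885 and CG16886 were left out. The rule gave 106 of 15627 named genes, and 106 of the 3528 CG-numbered genes that had at least 2 FPKM in wild type. The genes were thus chosen by the same 2 RNA values that are described below, which are given as a description, with no test.

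The Polycomb RNAi discs carried the GAL4 driver P{Act5C-GAL4}25FO1, expressed broadly from an actin promoter, together with UAS-dsRNA Polycomb, which makes a double-stranded RNA against Polycomb, in a y1 w* background. The discs called wild type had the same driver over the balancer chromosome CyO, y+, and the same y1 w* background. The CyO balancer, of chromosome 2, is named for wild type only. Wing discs of late larvae (3rd instar) grown at 25 °C were used for both, and neither the hours of larval age nor the number of discs pooled is stated in the labels. There was 1 RNA library per genotype. Every difference below sets 1 library against 1 other, so it carries neither an error from replicates nor a p-value, and "lower" and "higher" speak of these 2 libraries alone.

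A CG number is the identifier a fly gene receives from genome annotation, and a gene keeps it as its symbol until it is named for a phenotype or a function. The set is thus united by name and by direction, not by a pathway. Polycomb is the chromodomain subunit of PRC1, a complex that keeps developmental genes silent. The wing disc is a larval epithelial sheet that gives rise to the wing and the thorax wall and secretes cuticle, the chitin and protein layer on the outside of an insect. Tracheal tubes, which are lined with cuticle too, and myoblasts are attached to it.

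Being lowered was no commoner among CG-numbered genes than among the rest of the table. Of the CG-numbered genes with at least 2 FPKM in wild type, 3.00% were at least 2-fold lower on the log2 scale with the pseudocount of 1, against 3.18% (136 of 4278) of genes with other kinds of names and 3.12% (244 of 7808) of all named genes. In the other direction, 1.19% (42 of 3528) of the CG-numbered genes were at least 2-fold higher, against 1.57% (67 of 4278) of the others. Among CG-numbered genes the share lowered was smaller at each higher level in wild type, while among the others it was smallest between 20 and 100 FPKM. Between 2 and 5 FPKM it was 8.23% of CG-numbered genes and 9.09% of the others, and between 5 and 20 FPKM 3.95% and 3.27%. Between 20 and 100 FPKM it was 1.26% of CG-numbered genes, against 2.38% of the others. At 100 FPKM and above 1 of 276 CG-numbered genes was lowered (0.362%), against 25 of 804 others (3.11%). The lowered CG-numbered genes thus sat at modest levels, with a median of 7.87 FPKM in wild type, where the median of all 3528 was 20.3 FPKM. The spread of the log2 difference over all CG-numbered genes was also wider at low levels, with an SD across genes of 0.69 between 2 and 5 FPKM and 0.24 at 100 FPKM and above. Genes with other names did not share this, with an SD of 0.77 between 2 and 5 FPKM and 0.78 at 100 FPKM and above.

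**Figure D1:**
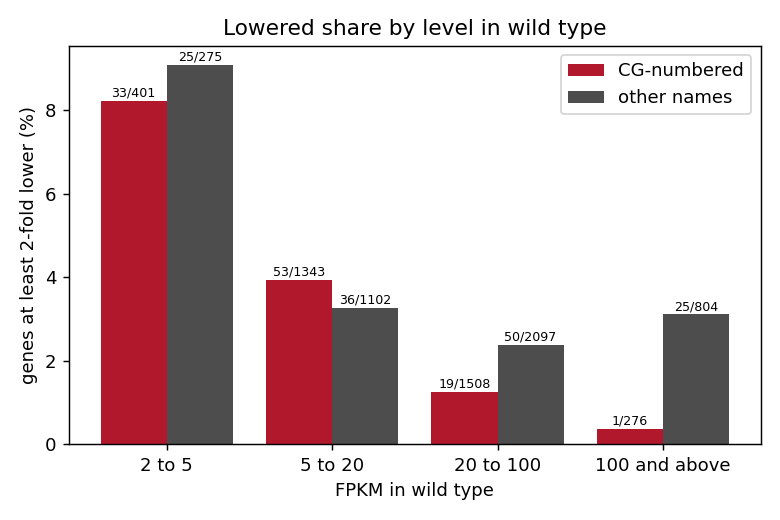
Percentage of genes at least 2-fold lower in Polycomb RNAi (vertical axis) by FPKM in wild type (horizontal axis), for CG-numbered genes (red) and genes with other names (grey), with lowered and tested genes printed above each bar. The 2 kinds of names are close below 20 FPKM, and at 100 FPKM and above 1 of 276 CG-numbered genes is lowered, against 25 of 804 others.

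Most of the 106 genes were reduced rather than gone. The Polycomb RNAi library ranged from 0 to 60.0 FPKM with a median of 1.49 FPKM, and the wild-type library from 2.02 to 156 FPKM. In Polycomb RNAi 63 of the 106 still had at least 1 FPKM and 5 were listed at 0. The log2 difference ranged from -3.83 to -1.0015, with quartiles of -1.81 and -1.20 and a median of -1.41, and it was at most -2 in 21 genes and at most -3 in 6. Over all 3528 CG-numbered genes the median was -0.01. At the threshold, CG17027, of the inositol monophosphatase family, lay just inside with 0.709 FPKM in Polycomb RNAi and 2.42 FPKM in wild type. CG13639 (2.67 and 6.38 FPKM) and CG13082 (10.1 and 21.5 FPKM) were the next inside, and CG42749 (2.66 and 6.25 FPKM), CG3639 (3.14 and 7.19 FPKM) and CG43324 (0.784 and 2.46 FPKM) lay just outside, each pair in the same order. At the wild-type minimum, CG12551, CG41337 and CG15201 lay just inside with 2.02, 2.04 and 2.05 FPKM in wild type. CG40958, CG12828 and CG4409 lay just outside with 1.99, 1.95 and 1.94 FPKM.

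**Figure D2:**
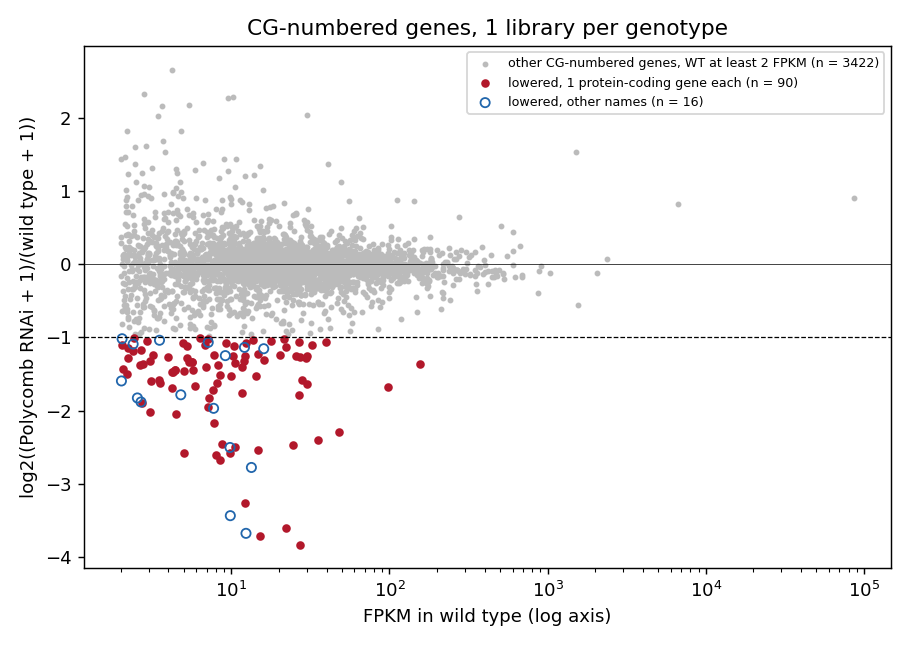
Log2 difference between Polycomb RNAi and wild type (vertical axis) against FPKM in wild type (horizontal log axis) for CG-numbered genes with at least 2 FPKM in wild type. Filled red points are the 90 lowered names that stand for 1 protein-coding gene each, blue circles the other 16 lowered names, grey points all others, and the dashed line is the threshold of -1.

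Not every lowered name stood for a lowered gene. RefSeq's gene table of the Release 6 assembly was used for names and gene order only. It matched 90 of the 106 names to a protein-coding gene that had no other name in the expression table. A further 3 names (CG43265, CG12688 and CG12842) are now non-coding or pseudogene entries, and 5 names (CG40244, CG41337, CG41556, CG42761 and CG34406) matched no gene. The last 8 names belong to 7 genes that the expression table also lists under a second name, and with the names summed 1 of these 7 genes was still lowered. They include 3 of the 10 names with the most negative differences.

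The clearest case was wash, which encodes an activator of Arp2/3 actin nucleation on endosomes. Its entry CG13176 had 0.0454 FPKM in Polycomb RNAi and 12.4 FPKM in wild type, while the entry named wash had 13.97 FPKM in Polycomb RNAi and 0.00954 FPKM in wild type. The 2 entries were mirror images, and their sum was 14.01 FPKM in Polycomb RNAi against 12.4 FPKM in wild type. The gene beg, which encodes a mitochondrial malonyltransferase, behaved likewise. CG7842 had 1.10 FPKM in Polycomb RNAi and 13.4 FPKM in wild type, the entry beg had 12.1 and 0.679 FPKM in that order, and the sums were 13.2 FPKM in Polycomb RNAi and 14.1 FPKM in wild type. For msd5, a subunit of the spindle complex augmin, the entry CG2213 had 0.00280 FPKM in Polycomb RNAi and 9.86 FPKM in wild type, and the summed values were 25.8 and 30.5 FPKM. For Ntmt, an N-terminal protein methyltransferase, CG1675 had 6.65 FPKM in Polycomb RNAi and 16.04 FPKM in wild type, and the summed values were 27.2 and 34.1 FPKM. These 4 genes were therefore within 2-fold once their entries were added.

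The remaining shared names belong to Mitf, CG43366 and CG43861. CG41130 was listed at 0 in Polycomb RNAi and at 2.55 FPKM in wild type, but it belongs to Mitf, a transcription factor gene whose own entry had 71.4 FPKM in Polycomb RNAi and 68.5 FPKM in wild type. CG12551, with 2.77e-31 FPKM in Polycomb RNAi and 2.02 FPKM in wild type, and CG14470, with 1.199 and 3.52 FPKM, both belong to CG43366. That gene summed to 5.11 FPKM in Polycomb RNAi and 10.7 FPKM in wild type, a log2 difference of -0.93. Only CG43861, which takes in CG12508, stayed past the threshold, with summed values of 4.24 FPKM in Polycomb RNAi and 12.5 FPKM in wild type and a log2 difference of -1.37. FPKM is scaled per length, so a sum over entries of unequal length is an approximation. The descriptions of gene order below use the 90 names that stand for 1 protein-coding gene each, which are 2.66% of the 3384 such CG-numbered genes with at least 2 FPKM in wild type.

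**Figure D3:**
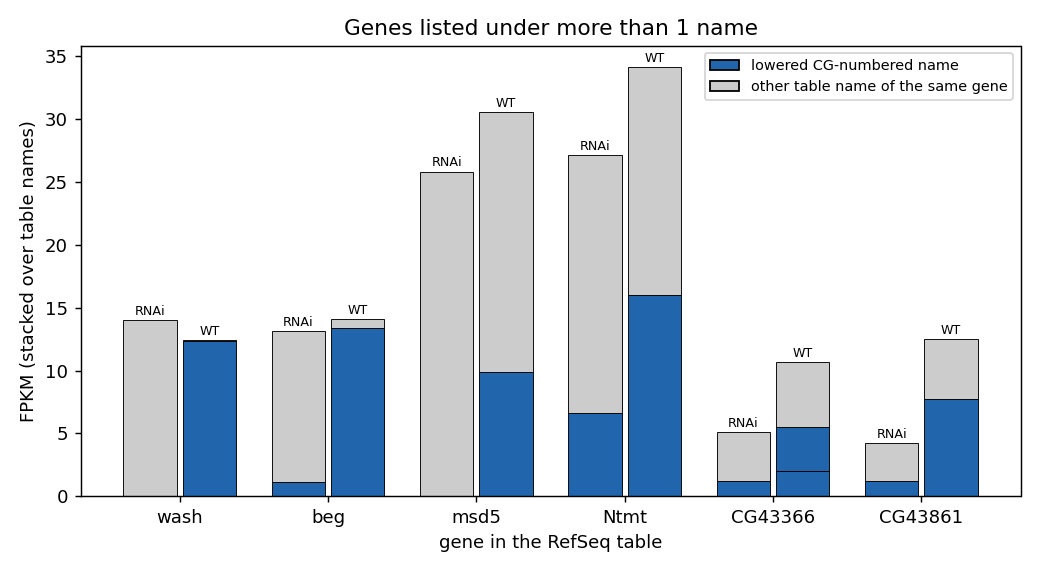
FPKM in Polycomb RNAi (left bar) and wild type (right bar) for 6 of the 7 genes listed under more than 1 name, stacked over the lowered CG-numbered names (blue) and the other name of the same gene (grey). For wash and beg the 2 names exchange places between the libraries while the total stays near 14 FPKM. Mitf, at about 71 FPKM in both libraries, is not drawn.

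Among the 90, the most negative difference was that of CG34247, with 0.979 FPKM in Polycomb RNAi and 27.2 FPKM in wild type. CG2663, which encodes a lipid carrier of the CRAL-TRIO family, had 0.235 FPKM in Polycomb RNAi and 15.2 FPKM in wild type, a log2 difference of -3.71. CG7465 had 0.899 FPKM in Polycomb RNAi and 22.1 FPKM in wild type. These 3 genes were at or above 15 FPKM in wild type and below 1 FPKM in Polycomb RNAi, far from the threshold. CG34282 had 0.489 FPKM in Polycomb RNAi and 8.52 FPKM in wild type, and CG32667, now named ssp7, had 0.800 and 9.80 FPKM. CG9759 was listed at 0 in Polycomb RNAi and at 5.001 FPKM in wild type, the only gene listed at 0 in Polycomb RNAi that had at least 4 FPKM in wild type.

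The most abundant lowered genes kept a sizeable level in Polycomb RNAi. CG33333 had 60.0 FPKM in Polycomb RNAi and 156 FPKM in wild type and was the only one above 100 FPKM. CG14664 had 8.98 FPKM in Polycomb RNAi and 48.0 FPKM in wild type, and CG11370 had 5.83 and 35.2 FPKM. These 2 were more than 4-fold apart on the log2 scale, at -2.30 and -2.41. The others of this rank were closer to the threshold. CG42268 had 18.6 FPKM in Polycomb RNAi and 39.8 FPKM in wild type, CG43114 had 14.6 and 32.4 FPKM, and CG13641, now named Srg1, had 12.2 and 30.3 FPKM. CG14566 (11.7 and 29.7 FPKM) and CG34193 (8.72 and 28.1 FPKM) completed the group together with CG13044 and AdamTS-B, which are described by role below.

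**Figure D4:**
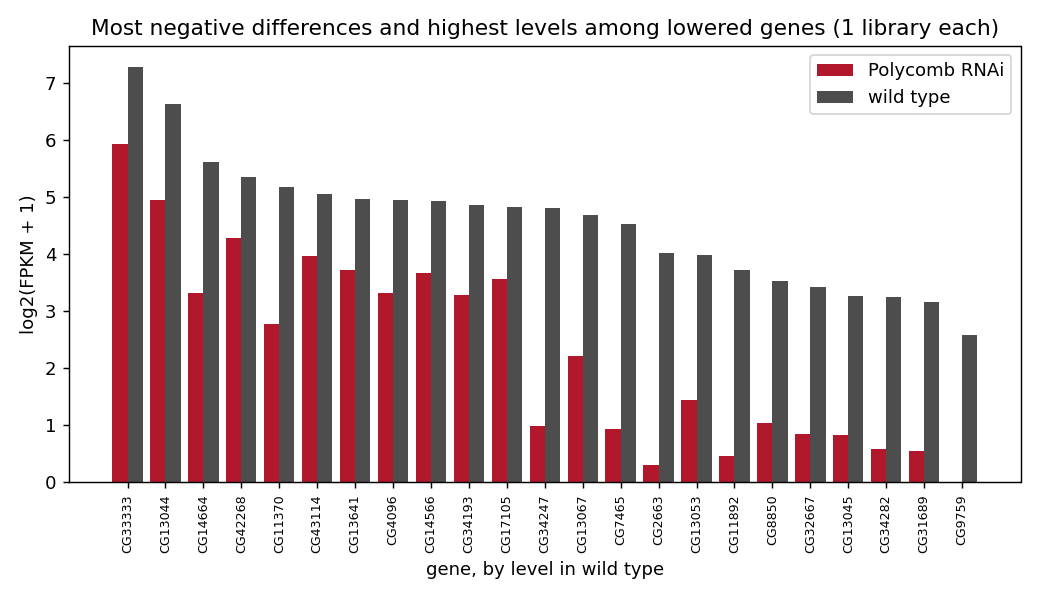
Log2(FPKM + 1) in Polycomb RNAi (red, left bar) and wild type (grey, right bar) for the lowered genes with the most negative differences and those with the highest wild-type levels, among the 90 that stand for 1 protein-coding gene. CG34247, CG7465 and CG2663 are below 1 FPKM in Polycomb RNAi, while CG33333 still has 60.0 FPKM.

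A role could be given for 29 of the 106 genes, from family membership known as background. The roles were assigned with the values known, so the groups below have no test. Cuticle and chitin proteins were 8 of them, and their log2 differences ranged from -2.17 to -1.24 with a median of -1.60. CG13044, of the family named after the corneal lens protein retinin, had 30.1 FPKM in Polycomb RNAi and 98.1 FPKM in wild type. Its relatives CG13041 and CG4962 were lower in level, with 2.80 FPKM in Polycomb RNAi and 9.97 FPKM in wild type for CG13041. CG4962 was listed at 0 in Polycomb RNAi and at 3.06 FPKM in wild type. CG8927 belongs to the Rebers-Riddiford family, whose shared motif binds chitin, and had 0.905 FPKM in Polycomb RNAi and 4.26 FPKM in wild type. Genes with chitin-binding domains of the kind found in insect peritrophic matrix and tracheal lining were also present. CG14301 had 8.03 FPKM in Polycomb RNAi and 20.3 FPKM in wild type, and CG12009 had 0.950 and 7.79 FPKM. CG14300 had 0.982 FPKM in Polycomb RNAi and 4.402 FPKM in wild type, and CG14957 had 0.610 and 4.20 FPKM. In the same libraries the tracheal markers summed to 604 FPKM in Polycomb RNAi and 882 FPKM in wild type. Of these 10 markers 2 were lowered, obst-A (20.2 and 220 FPKM), itself a chitin-binding protein gene, and trh (9.65 and 20.7 FPKM). Most of the difference between the sums came from obst-A, and the median log2 difference of the 10 markers was only -0.24. The part of attached trachea in these differences was not tested. In RNA from whole discs, fewer cells of a type and less RNA per cell cannot be told apart.

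Genes for secreted enzymes and inhibitors were 5 of the 106. The most abundant was CG4096, the metalloprotease gene AdamTS-B, with 8.99 FPKM in Polycomb RNAi and 29.9 FPKM in wild type. CG3513 and CG3604 encode Kunitz-type serine protease inhibitors. CG3513 had 1.17 FPKM in Polycomb RNAi and 5.86 FPKM in wild type, and CG3604 had 0.140 and 2.06 FPKM. The zinc carboxypeptidase gene CG8560 had 0.622 FPKM in Polycomb RNAi and 3.06 FPKM in wild type, and the lipase family gene CG5162 had 1.46 and 5.72 FPKM. Apart from AdamTS-B, the genes of this group had less than 6 FPKM in wild type.

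Carriers, transporters and relatives of ecdysteroid kinases were 8, and as a group they had the most negative median of the 4 role groups, -2.27. Their median level in wild type, 6.61 FPKM, was also the highest of the 4, and with the pseudocount of 1 higher levels allow larger differences. Ecdysteroid kinases inactivate the moulting hormone by phosphorylation in the silkworm, and the family is large in flies. CG11892 had 0.377 FPKM in Polycomb RNAi and 12.2 FPKM in wild type, and CG10514, the gene next to it on 3R, had 0.329 and 4.47 FPKM. The family neighbours CG10513 and CG31300 were below 0.4 FPKM in both libraries. CG31689, of the ABC transporter family, had 0.466 FPKM in Polycomb RNAi and 7.95 FPKM in wild type. CG8850, listed also as DmNAT4 after a family of amino acid transporters, had 1.054 FPKM in Polycomb RNAi and 10.6 FPKM in wild type. CG33282, of the sugar transporter family, had 0.121 and 2.18 FPKM in that order. CG11852, now named Jhbp7 after juvenile hormone-binding proteins, had 0.465 FPKM in Polycomb RNAi and 2.75 FPKM in wild type. CG30172, listed also as the chemosensory protein DmelCSP1, had 1.59 FPKM in Polycomb RNAi and 5.27 FPKM in wild type. All 8 of this group, CG2663 included, had less than 2 FPKM in Polycomb RNAi.

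The 8 metabolic enzymes lay nearer the threshold, with log2 differences from -1.63 to -1.0015 and a median of -1.10. They also had the lowest median level in wild type of the 4 role groups, 3.75 FPKM. The pseudocount of 1 understates changes of low genes, so the order of the groups reflects level as well as change. Bcat (CG1673), the branched-chain amino acid transaminase, had 9.58 FPKM in Polycomb RNAi and 22.1 FPKM in wild type. Gnmt (CG6188), which uses up the methyl donor S-adenosylmethionine, had 3.01 FPKM in Polycomb RNAi and 7.17 FPKM in wild type. CG4306, of the gamma-glutamylcyclotransferase family, had 3.88 and 9.31 FPKM, and GstZ2 (CG9363), a zeta-class glutathione transferase, had 1.08 and 3.99 FPKM. The most negative of the group was CG8630, of the fatty acid desaturase family, with 0.461 FPKM in Polycomb RNAi and 3.52 FPKM in wild type. The phosphoglycerate mutase family gene CG7059 had 0.454 FPKM in Polycomb RNAi and 2.22 FPKM in wild type, and the phosphatase family gene CG5577 had 0.894 and 2.92 FPKM. The other 77 names, for which no role is given here, ranged from 0 to 60.0 FPKM in Polycomb RNAi and from 2.02 to 156 FPKM in wild type, with a median log2 difference of -1.36.

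Position along the chromosome was not used to choose the genes. Of the 90, 23 (25.6%) had another of the 90 at most 3 protein-coding genes away, in 10 runs. Among 122 CG-numbered protein-coding genes that were at least 2-fold higher and had at least 2 FPKM in Polycomb RNAi, 15 (12.3%) had another such gene within that distance. These sets differ in size and in the library that set their minimum, so the shares are not directly comparable, and no test of their difference was made. The share for CG-numbered genes in general was not computed, so whether 25.6% is unusual is not known. The share depended on the distance, with 14 of the 90 directly beside another and 29 at most 5 genes away.

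Several of them lay on 3L, among the 44 protein-coding genes from CG13055 to CG33257, a stretch that includes the gene for retinin. Retinin is number 41 of the 44 in order, and all the lowered genes of the stretch lie on the same side of it. The ends of this stretch were chosen after the values were seen. Among all protein-coding CG-numbered genes of 3L with at least 2 FPKM in wild type, 23 of 669 (3.44%) were lowered. At least 2-fold higher were 8 of the 669. These counts take in the stretch, and its ends followed the values, so its shares cannot be compared with those of 3L. The stretch held 7 of the 90, of only 10 genes with at least 2 FPKM in wild type. Besides CG34247, CG13044, CG13041 and CG4962, these were CG13067 (3.63 FPKM in Polycomb RNAi and 24.7 FPKM in wild type), CG13053 (1.71 and 14.8 FPKM) and CG13045 (0.770 and 8.68 FPKM). The other 3 of the 10 were higher. CG13064 had 127 FPKM in Polycomb RNAi and 30.2 FPKM in wild type, CG4950 had 12.9 and 3.81 FPKM, and CG13046, directly beside CG13045, had 7.64 and 2.14 FPKM. CG13063 had 2.29 FPKM in Polycomb RNAi and was listed at 0 in wild type. No gene of the stretch with at least 2 FPKM in wild type was thus within 2-fold, and the higher genes lay between lowered ones. The 7 lowered genes summed to 39.9 FPKM in Polycomb RNAi against 186 FPKM in wild type, while the whole stretch summed to 195 FPKM in Polycomb RNAi against 229 FPKM in wild type. Retinin itself was listed at 0 in both libraries, and 33 of the 44 genes were below 2 FPKM in both. Genes of such clusters are similar in sequence, and the labels do not say how reads common to several copies were assigned.

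**Figure D5:**
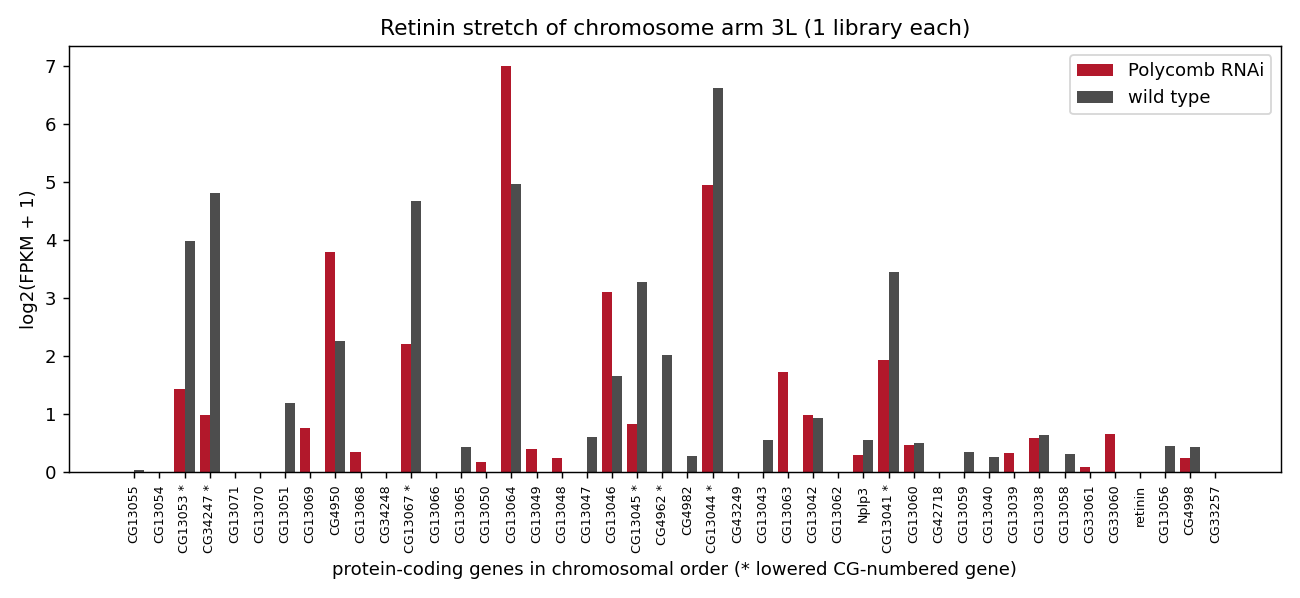
Log2(FPKM + 1) in Polycomb RNAi (red, left bar) and wild type (grey, right bar) for the 44 protein-coding genes from CG13055 to CG33257 in chromosomal order, with the 7 lowered genes starred. CG13064, CG4950 and CG13046 are higher in Polycomb RNAi and lie between lowered genes.

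Within the retinin stretch the runs were CG13053 with CG34247, and CG13045 with CG4962 and CG13044, while CG13067 and CG13041 were in no run. The runs elsewhere were of like length. On 2L, CG17104 (2.65 FPKM in Polycomb RNAi and 6.85 FPKM in wild type), CG17105 (10.8 and 27.3 FPKM) and CG7299 (0.410 and 2.66 FPKM) lay within 4 genes, and the next gene, CG7296, had 4.71 FPKM in Polycomb RNAi and 4.94 FPKM in wild type. Also on 2L, CG13082 and CG13081 (1.34 and 7.27 FPKM) lay side by side and CG10337 (4.25 and 10.5 FPKM) lay beyond ref(2)P, which had 55.3 FPKM in Polycomb RNAi and 50.9 FPKM in wild type. On 3R, CG5866 (0.494 and 3.49 FPKM) lay beside CG33333, CG14300 beside CG34282, CG10514 beside CG11892, and CG13639 was 3 genes from Srg1. On the X, ssp7 was 3 genes from CG15201 (0.422 and 2.05 FPKM), and between them CG15202 was higher, with 3.14 FPKM in Polycomb RNAi and 0.964 FPKM in wild type. CG12481 (1.64 and 5.63 FPKM) and CG13403 (0.968 and 4.38 FPKM) were separated by 1 gene listed at 0 in both libraries.

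Genes directly beside the 90, leaving out those among the 90, numbered 162, and 63 of them had at least 2 FPKM in wild type. Of these 63, 25 had names of another kind. None of the 25 was at least 2-fold lower or higher, and their median log2 difference was -0.03. Among all 7380 protein-coding genes with at least 2 FPKM in wild type, 2.40% were lower and 1.17% higher. At such shares a set of 25 genes may well hold none, so this count does not set the neighbours apart. CG-numbered neighbours that were lower count among the 90 by the rule, so only higher ones could appear. There were 4, or 6.35% of the 63, a share not directly comparable with the 1.17%, because the 63 leave out lowered CG-numbered neighbours. CG14302, beside CG14301, had 19.8 FPKM in Polycomb RNAi and 3.64 FPKM in wild type. CG14567, beside CG14566, had 23.0 and 10.5 FPKM. CG4716, at 6.62 FPKM in Polycomb RNAi and 2.502 FPKM in wild type, and CG13046 were the others.

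The lowered genes were spread over all large chromosome arms. On 3L they were 23 of 669 protein-coding CG-numbered genes with at least 2 FPKM in wild type (3.44%), on 3R 26 of 855 (3.04%) and on 2L 18 of 601 (3.00%). On the X they were 11 of 579 (1.90%) and on 2R 12 of 662 (1.81%), and none of 18 on chromosome 4 was among them. Chromosome 2, whose balancer is named for the wild-type genotype only, held 2.38% (30 of 1263), against 3.22% (49 of 1524) for chromosome 3.

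The libraries carried no strand information, so reads from a stretch shared by overlapping genes cannot be assigned by strand. Overlap was judged on whole gene spans, introns included, and overlap of exons was not checked. Of the 90, 26 overlapped another protein-coding gene in the Release 6 table, and 8 of them a gene with at least 10 FPKM in wild type. Bin1, which overlaps CG8927, had 105 FPKM in Polycomb RNAi and 117 FPKM in wild type, and brm, which overlaps CG17027, had 78.5 and 79.4 FPKM. Of 12 overlaps with a gene of at least 2 FPKM in wild type, 1 was with a lowered gene, the piRNA pathway gene qin over CG14301, with 0.251 FPKM in Polycomb RNAi and 2.03 FPKM in wild type.

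Some facts of the whole libraries bear on these values. Pc itself had 13.0 FPKM in Polycomb RNAi and 14.6 FPKM in wild type, and the table does not tell transcripts of the gene from those of the transgene. Among 10 wing disc genes all were detected in both libraries, summing to 548 FPKM in Polycomb RNAi and 712 FPKM in wild type. Their median log2 difference was -0.44, and 3 (Dll, ap and vg) were at least 2-fold lower. Fat body markers summed to 2794 FPKM in Polycomb RNAi and 4352 FPKM in wild type (1 of 10 lower), with a median log2 difference of -0.16. The lowered one, Lsp1gamma (465 and 1675 FPKM), made up most of the difference between the sums. Haemocyte markers summed to 133 FPKM in Polycomb RNAi and 84.1 FPKM in wild type (5 of 10 higher) and muscle and myoblast markers to 570 and 476 FPKM (3 of 10 higher). Gut and salivary gland markers summed to 147 FPKM in Polycomb RNAi and 51.5 FPKM in wild type, with Sgs7 alone at 94.0 and 29.6 FPKM. Of the 8 that reached 1 FPKM in either library, 4 were higher, the salivary gland genes Sgs3, Sgs5, Sgs7 and Sgs8. The 2 lower ones were the gut genes betaTry and epsilonTry. Male germline markers summed to 28.8 FPKM in Polycomb RNAi and 2.36 FPKM in wild type (7 higher of 7). Neuron and glia markers summed to 126 and 128 FPKM in that order (0 of 5 at least 2-fold apart). The collagen gene Cg25C stands in both the fat body and the haemocyte list. Listed at 0 in Polycomb RNAi were para and Amy-d, and in wild type Mst84Da, Mst84Db, Mst84Dd, Mst98Ca and dj. The part of other cell types in the lower values of the 106 genes was not tested.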

How the data were processed

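The authors deposited FPKM values per gene name for 1 Polycomb RNAi and 1 wild-type library of unstranded total RNA, with no counts. Per the submitters' processing notes, the tools were TopHat2 2.0.11, Cufflinks, Bowtie 1.0.0, SICER and CASAVA 1.4, in no stated role, on the build dm3. The annotation and any filter: not given in the sources used here. A row named by a dash was left out (0.206% of summed FPKM in Polycomb RNAi and 0.127% in wild type). The largest entry, CG41421, took 16.4% of summed FPKM in Polycomb RNAi and 9.41% in wild type.

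The members, gene lists and role groups were chosen with earlier results of these data known. Differences were log2 ratios with a pseudocount of 1, which understates changes of low genes, computed with Python 3.11.15 and pandas 2.3.3. Of 15627 names, 14979 (95.9%) matched a RefSeq gene. Among 1159 genes with low values, the most frequent ratio of Polycomb RNAi to wild type was 0.96, and 19.6% of these genes lay within 5% of it. The absolute depth is unknown, so no counting interval is given. The rule named the 10 most negative and 10 most abundant members, members at 0 in Polycomb RNAi with at least 4 FPKM in wild type, members at most 3 genes apart and those nearest the thresholds. Members described by role, by a shared name or in the retinin stretch, and neighbours, were named after their values were seen. Protein and promoter sequences and the H4K20me1 peaks were not analysed here.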

Additional observations from a re-analysis of the deposited data

How the results depend on the processing

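With 1 library per genotype no sample could be left out, and no paired analysis was possible because each group has a single library. The 106 lowered names became 31 with a pseudocount of 5, which can only remove names, and 140 with 0.1, which can only add them. Their number was 133 with a wild-type minimum of 1 FPKM and 73 with 5 FPKM. With no minimum it was also 133, as it must be, since with a pseudocount of 1 no gene below 1 FPKM in wild type can reach -1. The number was 116 after scaling to equal sums, and 105 with median centring or with equal sums without the largest entry, where CG17027 was lost. Chosen after seeing the data, summing names of the same gene left 99, and leaving out names that share a gene or match none left 93. The number with another member at most 3 genes away, 23, became 14 when only adjacent genes counted, 29 within 5 genes and 20 without members that overlap another gene. Of the 40 members named by the rule, 18 were within 2-fold with a pseudocount of 5. A shared pseudocount cannot change the sign of a difference. The scalings moved these differences too little to do so. Other settings for protein features, promoter motifs and H4K20me1 peaks were not run. The depth is unknown, so no member has a known counting error.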
